A study of Mus musculus with 12 samples.

Results

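The liver X receptor (LXR) and cholesterol efflux genes examined here were 10 mouse genes taken by symbol. No measured value was a condition of membership, but the genes were chosen with earlier results of these data known. They were the receptors Nr1h2 (LXRβ) and Nr1h3 (LXRα) with their partner Rxra, the sterol exporters Abca1, Abcg1, Abcg5 and Abcg8, the apolipoprotein gene Apoe, and the LXR target genes Mylip and Lpcat3. All 10 were found by Ensembl identifier among the 55357 genes of each of the 2 count tables, 1 for the liver and 1 for RAW264.7 cells. In the liver 10 of the 10 could be tested and none was called. In the cells Abcg1, Mylip and Apoe fell with esculetin, Nr1h2 and Lpcat3 rose, Nr1h3 and Rxra passed no threshold, and Abca1, Abcg5 and Abcg8 held too few reads to be tested there.

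RNA was sequenced in 12 libraries, 3 in each of 4 groups, to ask what esculetin, a plant coumarin, does to gene expression. The liver came from wild-type (WT) male C57BL6/J mice aged 8 to 9 weeks, gavaged daily for 7 days with esculetin at 90 mg/kg/d or with its vehicle, 2.5% Tween-80. Mice of both liver groups ate a control diet with 10% kcal from fat for 4 days and then a high-fat diet with 60% for 3 days. RAW264.7 cells, a mouse macrophage line, were kept for 24 hours in 25 µg/mL DIL-oxLDL, a dye-labelled oxidized low-density lipoprotein (LDL), with DMSO alone or with 40 µg/mL of esculetin, so that the controls in culture carried the lipoprotein too. Each liver sample joined 2 mice, per the study, and nothing in the sources used here says that the cell libraries came from separate cultures, so p-values in the cells may measure technical spread only. The dose, the time and the vehicle differed between mice and cells.

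LXRα and LXRβ are nuclear receptors that bind oxysterols, the oxidized forms of cholesterol, and that act on DNA as a pair with a retinoid X receptor such as RXRα. In macrophages they switch on ABCA1 and ABCG1, which hand cholesterol to lipid-poor apolipoprotein A-I and to high-density lipoprotein. In hepatocytes they act on ABCG5 and ABCG8, which send sterols into bile, and on genes of fatty acid synthesis.

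LXR and RXR bind a direct repeat called DR4, formed of sites of 6 bases with 4 bases between them. The promoter of Abca1 is printed here because it was the promoter of an LXR and efflux gene in which this repeat was found, and because Abca1 went from 4 to 31 reads in the cells. The stretch lies at chr4:53159901-53160040 in GRCm39 on the minus strand, just before the RefSeq start of Abca1, and capitals mark the repeat, which reads as DR4 on the other strand.
Abca1 promoter: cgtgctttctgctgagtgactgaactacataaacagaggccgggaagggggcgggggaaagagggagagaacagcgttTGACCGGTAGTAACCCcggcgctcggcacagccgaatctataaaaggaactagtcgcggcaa
The repeat lies 67 to 52 bases before the start. The search took a first site of A or G, G, G or T, T, C or T, A. The second site followed the same pattern but could also begin with C. Read on the other strand, the second site of the Abca1 repeat begins with C, so this repeat is found only with that allowance. The share of promoters without the allowance was not counted. On either strand of windows from 250 bases before to 50 bases after a start, DR4 was found in 83 of 32851 RefSeq promoters (0.253%) and in 1 of the 14 promoters listed for these genes. Those 14 belonged to 9 of the 10 genes, and Abcg1 had no entry. A match describes letters only, and LXR also acts from sites outside such windows.

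The libraries held 14659876 to 20346460 counts in the liver and 13752842 to 20001959 in the cells. Levels are given as CPM, counts scaled to the size of their library and corrected by edgeR's TMM factors, with the standard deviation (SD) over 3 libraries. On the first principal component of the liver (44.9% of the variance) control replicate 1 stood at -37.9 and the other 5 libraries between -2.77 and 14.4, so the liver fold changes are given with and without it. In the cells this component held 83.0% of the variance and parted the treatments. The summed hepatocyte markers ran from 103038 to 119289 CPM in control livers and from 91853 to 115184 with esculetin. None of the 6 hepatocyte, 5 macrophage (of 6 listed) and 6 Kupffer cell markers tested was called, beside 0.0859% of all tested liver genes. The 3 blood markers summed to 162 to 775 CPM in control livers and 270 to 519 with esculetin. The 3 adipocyte markers summed to 4.23 to 25.4 CPM in controls and 7.78 to 39.2 with esculetin. The part of blood and fat in the liver values was not tested. The 6 Kupffer cell markers, which stand for the resident macrophages of the liver, summed to 289 to 378 CPM in controls and 286 to 321 with esculetin. In the cells the 6 macrophage markers summed to 2203 to 2367 CPM in controls and 4886 to 7383 with esculetin. Of these 6, 4 were called, each of them higher, beside 57.7% of all tested genes called and 28.7% called higher. In every cell library Ttr, Cps1 and Serpina1c of the hepatocyte list and Timd4, C1qa and C1qb of the Kupffer cell list had 0 counts. The part that the rise of the summed macrophage markers has in the changes below was not tested.

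Without esculetin the 10 genes stood in a different order in the liver and in the cells. Levels between genes are compared as CPM per kilobase of exon. In control livers Apoe led with 6519 ± 910.3 (SD, n = 3), followed by Rxra at 48.5 ± 5.53, Nr1h3 at 28.7 ± 4.62, Abcg8 at 15.1 ± 2.09 and Abcg5 at 14.4 ± 1.58. Lpcat3 at 10.9 ± 1.98, Nr1h2 at 9.78 ± 1.35, Abca1 at 3.07 ± 1.26, Mylip at 2.46 ± 0.329 and Abcg1 at 1.0 ± 0.155 CPM per kilobase came after them. The ranges of the 3 control libraries overlapped between the neighbours Abcg8 and Abcg5, Abcg5 and Lpcat3, Lpcat3 and Nr1h2, and Abca1 and Mylip, so these pairs did not differ beyond their spread. In control cells Nr1h2 led with 17.1 ± 0.321, followed by Abcg1 at 10.7 ± 0.699, Mylip at 6.09 ± 0.530, Lpcat3 at 4.46 ± 0.203 and Apoe at 2.52 ± 0.325. Rxra at 0.628 ± 0.198, Nr1h3 at 0.221 ± 0.114, Abcg5 at 0.0187 ± 0.0208 and Abca1 at 0.00550 ± 0.00209 CPM per kilobase followed, Abcg8 was at 0, and the only neighbours with overlapping ranges were Abcg5 and Abca1. The tables were scaled separately, so no level is set against its value in the other table.

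**Figure D1:**
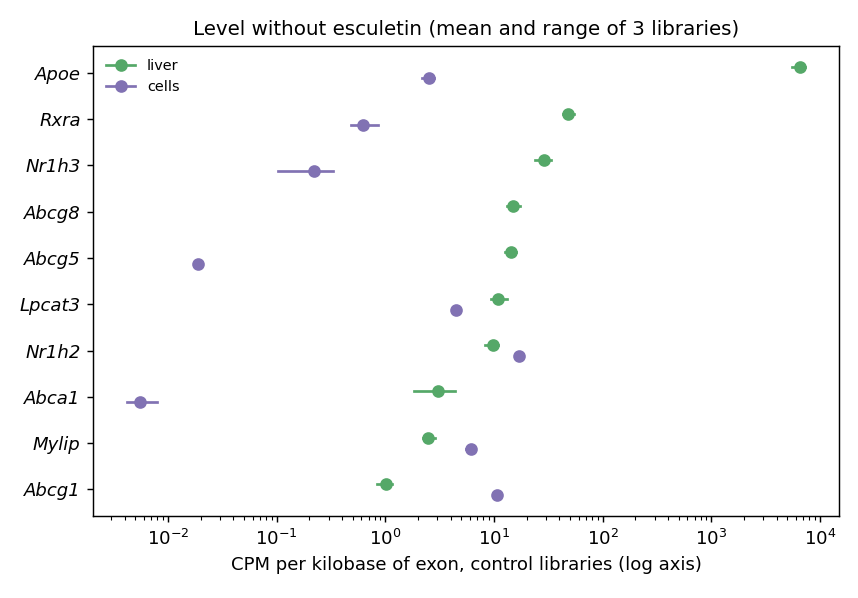
Level of each gene without esculetin, in CPM per kilobase of exon on a log axis, as the mean (point) and range (line) of 3 control libraries in the liver (green) and in the cells (purple). Apoe stands highest in the liver at 6519 and Nr1h2 in the cells at 17.1, while the cells' points of Abcg5 and Abca1 rest on 0 to 3 counts a library. Abcg8 in the cells was at 0 and is not drawn, nor is the range of Abcg5 there, which reaches 0.

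The 2 LXR genes took opposite places in liver and cells. Per kilobase, Nr1h3 stood 2.87 to 3.11 times as high as Nr1h2 in each of the 6 liver libraries, with and without esculetin. In the 6 cell libraries Nr1h2 stood 53.0 to 164 times as high as Nr1h3. The retinoid X receptors showed the same kind of exchange, with Rxra 5.63 to 7.28 times as high as its relative Rxrb in the liver and Rxrb 26.1 to 50.1 times as high as Rxra in the cells. The exporters differed as well: in the liver Abca1 was 2.19 to 4.00 times as high as Abcg1. In the cells Abcg1 was 1348 to 2715 times as high as Abca1 in controls and 51.3 to 75.2 times with esculetin, where the control ratios rest on 1 or 2 Abca1 counts.

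In the liver no LXR or efflux gene was called by edgeR's quasi-likelihood test at an adjusted p under 0.05, 0 of 10, beside 11 of all 12813 genes tested there (0.0859%). DESeq2 and limma-voom called 0 as well. At an unadjusted edgeR p under 0.05 there was 1 of 10, Mylip, beside 1072 of all 12813 tested genes. The 10 log2 fold changes ran from -0.26 to 0.39 with a median of 0.07, beside -0.02 over all tested genes. Their 95% intervals reached from -0.71 to 0.76, so that a fall of up to 1.63-fold or a rise of up to 1.69-fold in some of them lies inside these intervals. Without control replicate 1 none was called either, and the log2 fold change was 0.07 for Nr1h2, 0.12 for Nr1h3, -0.15 for Abcg1, 0.16 for Abcg5, 0.23 for Abcg8, -0.09 for Apoe, 0.35 for Mylip and -0.11 for Lpcat3. In whole tissue, fewer cells of a type and less RNA per cell cannot be told apart.

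Among the receptors, Nr1h2 (chromosome 7, 44199036 to 44203406, GRCm39) had 28.7, 35.1 and 37.8 CPM in control livers and 34.6, 40.2 and 40.1 CPM with esculetin. The groups overlapped, and the log2 fold change was 0.18 with a standard error (SE) of 0.14 and an edgeR adjusted p of 0.749. Nr1h3 (chromosome 2, 91014394 to 91033417) had 121, 148 and 168 CPM in controls and 157, 177 and 179 CPM with esculetin, again with overlap (log2 fold change 0.23, SE 0.14, edgeR adjusted p = 0.668). Rxra (chromosome 2, 27566452 to 27653330), the partner of both, had a mean of 333 ± 38.0 CPM in controls and 348 ± 17.6 with esculetin (log2 fold change 0.06, edgeR adjusted p = 0.916). Without control replicate 1 the log2 fold change of Rxra was -0.01.

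Of the exporters, Abca1 (chromosome 4, 53030787 to 53159900) varied most among control livers, at 53.5, 37.2 and 22.5 CPM, beside 37.5, 30.3 and 32.1 CPM with esculetin. All 3 esculetin libraries lay within the span of the controls (log2 fold change -0.18, SE 0.24, edgeR adjusted p = 0.869). Control replicate 1 was the highest, and without it the log2 fold change was 0.16 (edgeR adjusted p = 0.846). Abcg1 (chromosome 17, 31276649 to 31336969) had 5.04 to 8.83 CPM over the 6 liver libraries, and its log2 fold change was -0.26 (SE 0.21, edgeR adjusted p = 0.755). Abcg5 (chromosome 17, 84964851 to 84990494) and Abcg8 (chromosome 17, 84983730 to 85007765) lie head to head and encode the subunits of a single transporter. Abcg5 had 51.1 ± 5.61 CPM in controls and 54.1 ± 6.13 with esculetin (log2 fold change 0.08, edgeR adjusted p = 0.896). Abcg8 had 58.0 ± 8.04 and 68.7 ± 9.38 CPM (log2 fold change 0.24, edgeR adjusted p = 0.668), and per kilobase it stood at 0.904 to 1.36 times the level of Abcg5 in every liver library. Both groups overlapped for each subunit.

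Apoe (chromosome 7, 19430034 to 19434947), whose protein carries lipoproteins to their receptors, had 22224, 27712 and 29229 CPM in control livers and 27514, 26207 and 26149 CPM with esculetin. The esculetin libraries lay inside the span of the controls, and the log2 fold change was 0.01 with a 95% interval from -0.33 to 0.36 (edgeR adjusted p = 0.99). Mylip (chromosome 13, 45543215 to 45565501) encodes IDOL, the ubiquitin ligase that marks lipoprotein receptors for breakdown. It had 7.61, 9.41 and 7.45 CPM in controls and 9.96, 11.3 and 10.9 CPM with esculetin. Mylip was the 1 gene of the 10 whose groups did not overlap, beside 14.5% of all tested liver genes, and the edgeR adjusted p of its log2 fold change (0.39, SE 0.17, 95% interval 0.02 to 0.76) was 0.559. Lpcat3 (chromosome 6, 124639765 to 124684440) encodes the enzyme that puts polyunsaturated fatty acids into membrane phospholipids. Its mean was 86.8 ± 15.7 CPM in controls and 85.6 ± 3.69 with esculetin, with overlap and an edgeR adjusted p of 0.979.

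**Figure D2:**
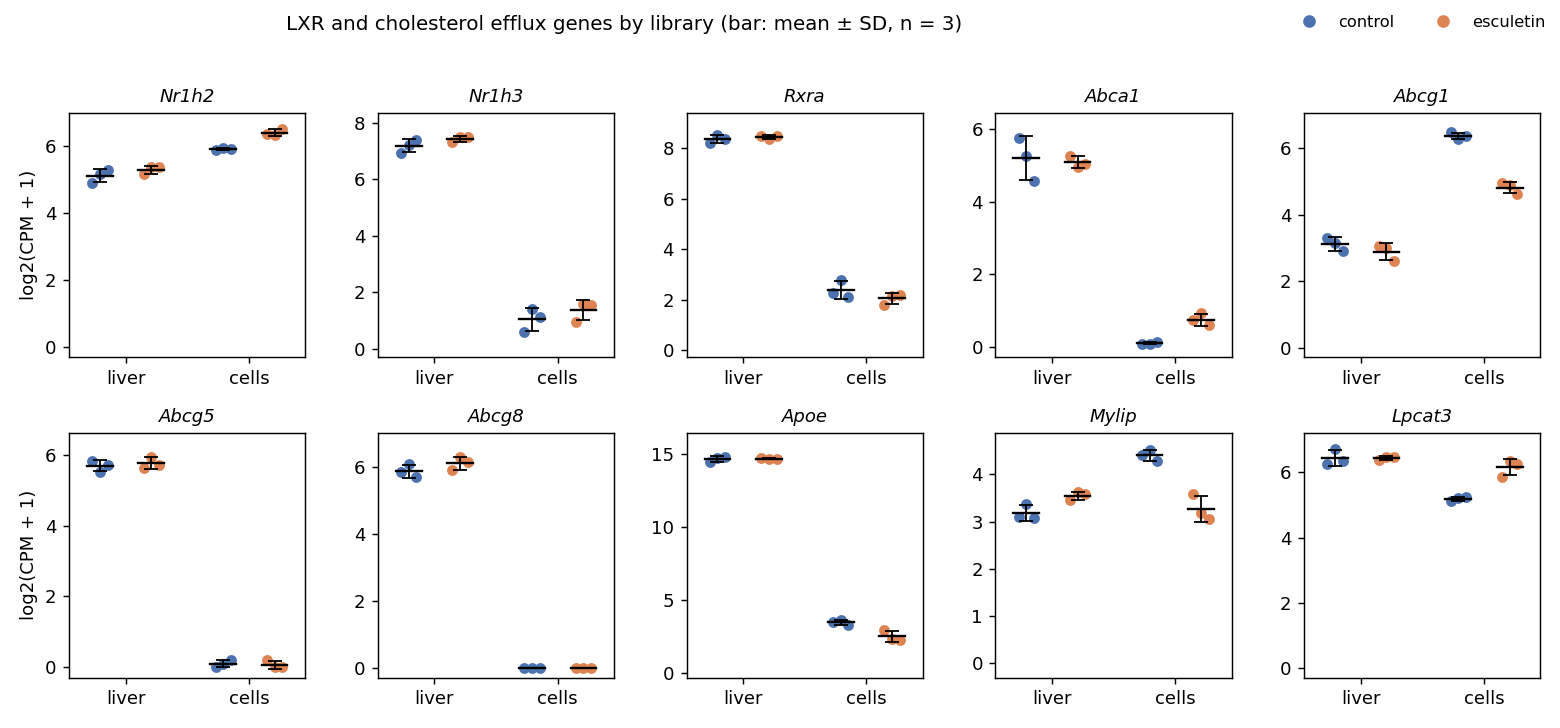
Each of the 10 genes in each library as log2(CPM + 1), with control libraries in blue and esculetin libraries in orange, and the mean and SD of 3 libraries as a bar with whiskers; liver and cells were scaled separately. In the liver the groups overlap for each gene but Mylip, while in the cells Abcg1, Apoe and Mylip lie lower with esculetin, Nr1h2 and Lpcat3 higher, and Abca1 stays under 1 CPM in every library.

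In the cells 7 of the 10 genes passed the filter on low counts and 5 were called by edgeR, beside 57.7% of all 13277 genes tested. The 3 that fell stand beside a background of 29.0% of tested genes called lower, and the 2 that rose beside 28.7% called higher. The groups did not overlap in the same 5 of the 7 tested genes, beside 64.1% of all tested genes. With so large a share of all genes called, these counts are near the background, and the values of each gene carry the description.

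Among the receptors in the cells, Nr1h2 had 58.2, 60.4 and 59.0 CPM in controls and 80.7, 79.2 and 90.5 CPM with esculetin. Every esculetin library lay above every control, and the rise was 1.41-fold (log2 fold change 0.50, SE 0.09, edgeR adjusted p = 0.000488). Nr1h3, the receptor of lower level, had 10, 31 and 24 counts in controls and 13, 30 and 35 counts with esculetin, or 1.12 ± 0.575 and 1.65 ± 0.606 CPM. Its groups overlapped, and the 95% interval of its log2 fold change of 0.57 ran from -0.41 to 1.55 (edgeR adjusted p = 0.290). Rxra had 3.78, 5.86 and 3.30 CPM in controls and 2.48, 3.40 and 3.56 CPM with esculetin, with overlap (log2 fold change -0.44, SE 0.27, edgeR adjusted p = 0.180). With 1 library left out, the log2 fold change of Nr1h3 ran from 0.23 (without control replicate 1) to 0.96 (without control replicate 2) and that of Rxra from -0.60 (without control replicate 3) to -0.16 (without control replicate 2), and neither was called in any of these fits.

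Abcg1 and Abca1, the exporters of macrophages, went different ways. Abcg1 had 88.3, 77.5 and 82.3 CPM in control cells and 29.9, 28.5 and 23.7 CPM with esculetin. The groups lay far apart, and the level was 3.03-fold lower with esculetin (log2 fold change -1.60, SE 0.11, 95% interval -1.83 to -1.36, edgeR adjusted p = 6.44e-07). Abca1 had 1, 1 and 2 counts in controls and 9, 13 and 9 counts with esculetin, no overlap, at under 1 CPM throughout. Summed over the 3 libraries and scaled to their depth, 31 counts against 4 give a ratio of 9.79 with a counting interval from 3.46 to 38.2, which covers counting error only. Abca1 was too low for the main test and therefore got no fitted fold change. It entered 5 of the 15 alternative fits in the cells (no filter on low counts, or without control replicate 1, 2 or 3 or esculetin replicate 3) and was called in each, with edgeR adjusted p-values from 0.00215 to 0.0108. In the fits with a library left out Abca1 passed the filter only through the esculetin group, where it is high, so those calls are no independent support.

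Abcg5 and Abcg8, the transporter of bile and gut, were at or near 0 in the cells. Abcg5 had 0, 1 and 3 counts in controls and 2, 0 and 0 counts with esculetin, which gives a ratio of 0.631 with a counting interval from 0.0571 to 4.41. Abcg8 had 0 counts in all 6 libraries, and 0 counts over a group of 3 libraries allow up to 0.0513 CPM in controls and 0.0647 CPM with esculetin (3 counts of the group's total, counting error only).

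Apoe in the cells had 10.6, 11.3 and 8.75 CPM in controls and 6.79, 4.08 and 3.95 CPM with esculetin. Its level was 2.08-fold lower without overlap (log2 fold change -1.06, SE 0.22, edgeR adjusted p = 0.00165). Mylip had 20.1, 22.0 and 18.5 CPM in controls and 11, 8.03 and 7.30 CPM with esculetin, a level 2.31-fold lower, again without overlap (log2 fold change -1.21, SE 0.16, edgeR adjusted p = 7.72e-05). Lpcat3 went the other way, from 33.7, 36.0 and 36.8 CPM in controls to 57.4, 80.7 and 76.2 CPM with esculetin. It was 2.01-fold higher (log2 fold change 1.01, SE 0.12, edgeR adjusted p = 4.08e-05), and the esculetin libraries spread more widely than the controls (SD 12.4 against 1.62 CPM). Abcg1, Mylip and Lpcat3, all known LXR targets, therefore did not change in 1 direction.

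Some of these genes share exon bases with a neighbour on the opposite strand, and the strand setting of the counting was not stated, so reads from such bases cannot be assigned here. Lpcat3 shares 4277 of its 7956 exon bases with Emg1, a gene of ribosome assembly, whose log2 fold change in the cells was -0.36 (edgeR adjusted p = 0.00276) where Lpcat3 rose. Nr1h3 shares 256 of 5060 exon bases with Acp2, a lysosomal acid phosphatase gene, which rose in the cells by 1.75 on the log2 scale (edgeR adjusted p = 1.53e-05) and had -0.01 in the liver. In the cells Acp2 held 1691 counts over the 6 libraries, and the part of its reads in the low counts of Nr1h3 was not tested. Abcg5 and Abcg8 share 108 bases.

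**Figure D3:**
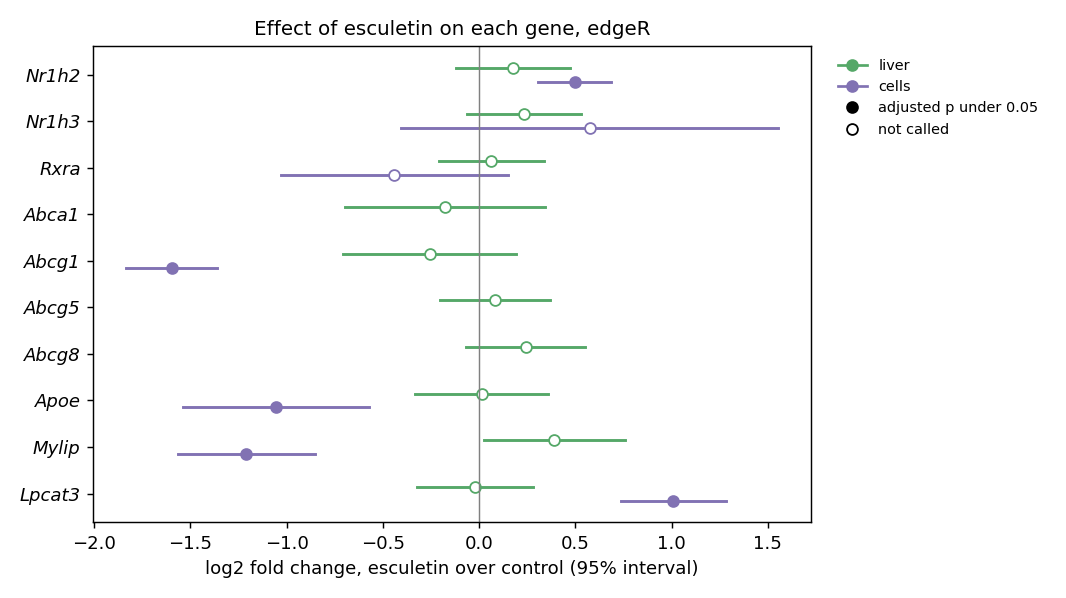
Log2 fold change of esculetin over control from edgeR with its 95% interval, for the liver (green) and the cells (purple), where filled points have an adjusted p under 0.05 over all tested genes. The 10 liver points lie between -0.26 and 0.39 and none is filled, while the filled cell points run from -1.60 (Abcg1) to 1.01 (Lpcat3). Abca1, Abcg5 and Abcg8 were too low to be tested in the cells and have no purple point.

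The effect in the cells differed from that in the liver for 5 of the 10 genes, in a single edgeR model of all 12 libraries, beside 27.1% of the 15709 genes tested in it. Of the genes with a usable estimate, Mylip had the largest difference, -1.64 on the log2 scale (SE 0.25, edgeR adjusted p = 0.000164), with 0.39 in the liver and -1.21 in the cells. For Abcg1 the difference was -1.38 (SE 0.23, edgeR adjusted p = 0.000316) and for Apoe -1.11 (SE 0.29, edgeR adjusted p = 0.0100), since neither was called in the liver and both fell in the cells. Lpcat3 differed by 0.99 in the other direction (SE 0.19, edgeR adjusted p = 0.00113). Abca1 passed as well, with an edgeR adjusted p of 0.00852, and its fitted difference is not given because its control cell libraries held 1, 1 and 2 counts. For the receptors no difference was called: it was 0.28 for Nr1h2 (95% interval -0.07 to 0.63, edgeR adjusted p = 0.227), 0.31 for Nr1h3 (-0.50 to 1.12, edgeR adjusted p = 0.615) and -0.54 for Rxra (-1.09 to 0.00, edgeR adjusted p = 0.133). Without liver control replicate 1 the difference of Nr1h2 was 0.44 with an edgeR adjusted p of 0.0312. Abcg5 and Abcg8 gave no usable estimate. Dose, time, vehicle and preparation differ between the tables, and their parts in these differences cannot be told apart.

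A list of 45 other genes of LXR signalling and cholesterol export, chosen by role, was followed in the same fits. In the liver 41 were tested and 1 was called, Pltp, which encodes the phospholipid transfer protein of plasma. Pltp had 71.9, 70.7 and 72.4 CPM in controls and 27.3, 40.8 and 29.7 CPM with esculetin, so it fell without overlap by 1.14 on the log2 scale (SE 0.15, edgeR adjusted p = 0.0225). The call was lost without control replicate 2, esculetin replicate 1 or esculetin replicate 3, with 0 genes of the list called in each, while without control replicate 1 there were 2 calls, Pltp and Scd1. Of the 41 tested genes 10 had groups that did not overlap, 3 higher and 7 lower with esculetin, or 24.4% beside 14.5% of all tested genes. Their median log2 fold change was -0.08, beside -0.02 over all genes.

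The next genes of the liver are named after their values were seen. Scd1, the desaturase that makes oleic acid, had -1.08 on the log2 scale at an edgeR adjusted p of 0.0527. The 3 that lay higher without overlap were Rxrb (log2 fold change 0.20, edgeR adjusted p = 0.709), the oxysterol hydroxylase gene Cyp7b1 (1.19, edgeR adjusted p = 0.210) and Scarb1, the receptor for high-density lipoprotein (0.36, edgeR adjusted p = 0.478). Cyp7b1 was called as higher in 4 alternatives: no filter on low counts, the study's criterion, the replicate block and without esculetin replicate 2. Lower without overlap, beside Pltp and Scd1, were Fasn, the fatty acid synthase (-0.70, edgeR adjusted p = 0.310), the desaturase gene Scd2 (-0.52, edgeR adjusted p = 0.420), Vldlr, a lipoprotein receptor (-1.05, edgeR adjusted p = 0.486), Abca7 (-0.67, edgeR adjusted p = 0.501) and the corepressor gene Ncor1 (-0.24, edgeR adjusted p = 0.636). Too low to be tested in the liver were Ch25h, Sult2b1, Apoc2 and Lrp8.

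In the cells 32 of the 45 were tested and 24 were called, 8 higher and 16 lower, or 75.0% of those tested beside 57.7% of all genes. Their median log2 fold change was -0.33, beside -0.01 over all genes. The count by direction differed between roles. Of the other LXR targets, 7 of the 8 tested fell and 1 rose, beside 29.0% called lower and 28.7% called higher over all tested genes. Cd5l, 1 of the 7 and of the 16 lower, had 39, 41 and 45 counts in controls and 4, 11 and 10 with esculetin. It passed the filter on low counts only through the control libraries, where it is high, so its call rests in part on the filter. Cd5l is named after its value was seen. The log2 fold change was -1.31 for Scd1, -0.91 for its relative Scd2, -1.45 for the phosphodiesterase gene Smpdl3a and -0.70 for Pltp, with edgeR adjusted p-values from 7.05e-06 to 8.65e-05. Lpl, the lipoprotein lipase and the 1 that rose, went from 1056 ± 92.0 to 1522 ± 129.8 CPM (log2 fold change 0.53, edgeR adjusted p = 0.00106) and is named after its value was seen. The targets that fell include genes of fatty acid synthesis, which LXR controls together with SREBP-1c, the product of Srebf1.

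Of the genes that move, store or release cholesterol within the cell (the group of intracellular cholesterol supply), 6 of 9 rose and 1 fell in the cells. Over all tested genes 28.7% were called higher and 29.0% lower. Stard3, which encodes a cholesterol-binding protein of late endosomes, went from 44.7 ± 2.12 to 72.1 ± 7.37 CPM (log2 fold change 0.69, edgeR adjusted p = 0.000116). Nceh1, a hydrolase of cholesterol esters, rose by 0.72 (edgeR adjusted p = 0.000246), and Soat1, which makes those esters, rose by 0.55 (edgeR adjusted p = 0.000281). Gramd1a, a carrier of cholesterol from the plasma membrane, fell by 0.70 (edgeR adjusted p = 0.000220). Lipa, the lysosomal ester hydrolase of the list, was not called (log2 fold change -0.02, edgeR adjusted p = 0.807) and is named after its value was seen.

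Among receptor partners and coregulators, 2 of 5 tested fell in the cells and none rose, a share of calls not above the 57.7% of all tested genes. Rxrb, the main retinoid X receptor gene there, went from 107 ± 7.71 to 63.0 ± 5.46 CPM (log2 fold change -0.76, edgeR adjusted p = 4.65e-05). Nrip1, a corepressor of nuclear receptors, fell by 0.89 (edgeR adjusted p = 0.000399). Both tested enzymes of oxysterols fell, the sterol sulfotransferase gene Sult2b1 (log2 fold change -1.46, edgeR adjusted p = 0.00217) and the oxysterol-forming Cyp27a1 (-0.60, edgeR adjusted p = 0.00624). Of acceptors and other exporters, Scarb1 fell from 313 ± 14.6 to 155 ± 6.6 CPM (log2 fold change -1.01, edgeR adjusted p = 1.97e-06) and the transporter gene Abca7 by 0.52 (edgeR adjusted p = 0.000291). Lcat, which esterifies plasma cholesterol, rose by 1.54 (SE 0.51, edgeR adjusted p = 0.0222) at 0.344 and 1.0 CPM, and it was not among the calls in the fits without control replicate 2, without control replicate 3 or without esculetin replicate 3. Lcat passed the filter on low counts only through the esculetin libraries, so its call, 1 of the 8 higher, rests in part on the filter.

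Of the substrates of IDOL on the list, Lrp8, a receptor for apolipoprotein E, fell by 0.35 (edgeR adjusted p = 0.00369), beside the fall of Mylip in the same cells. Of the other enzymes that remodel phospholipids, Lpcat1 fell from 95.5 ± 5.12 to 38.1 ± 0.914 CPM (log2 fold change -1.33, edgeR adjusted p = 4.73e-07) where Lpcat3 rose, and Lpcat2 and Lpcat4 were not called. Too low to be tested in the cells were Rxrg, Pparg, Ch25h, Cyp46a1, Cyp7b1, Apoc1, Apoc2, Apoc4, Arl4c, Mertk, Cyp7a1, Apoa1 and Vldlr, with 12 counts or fewer in every library.

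**Figure D4:**
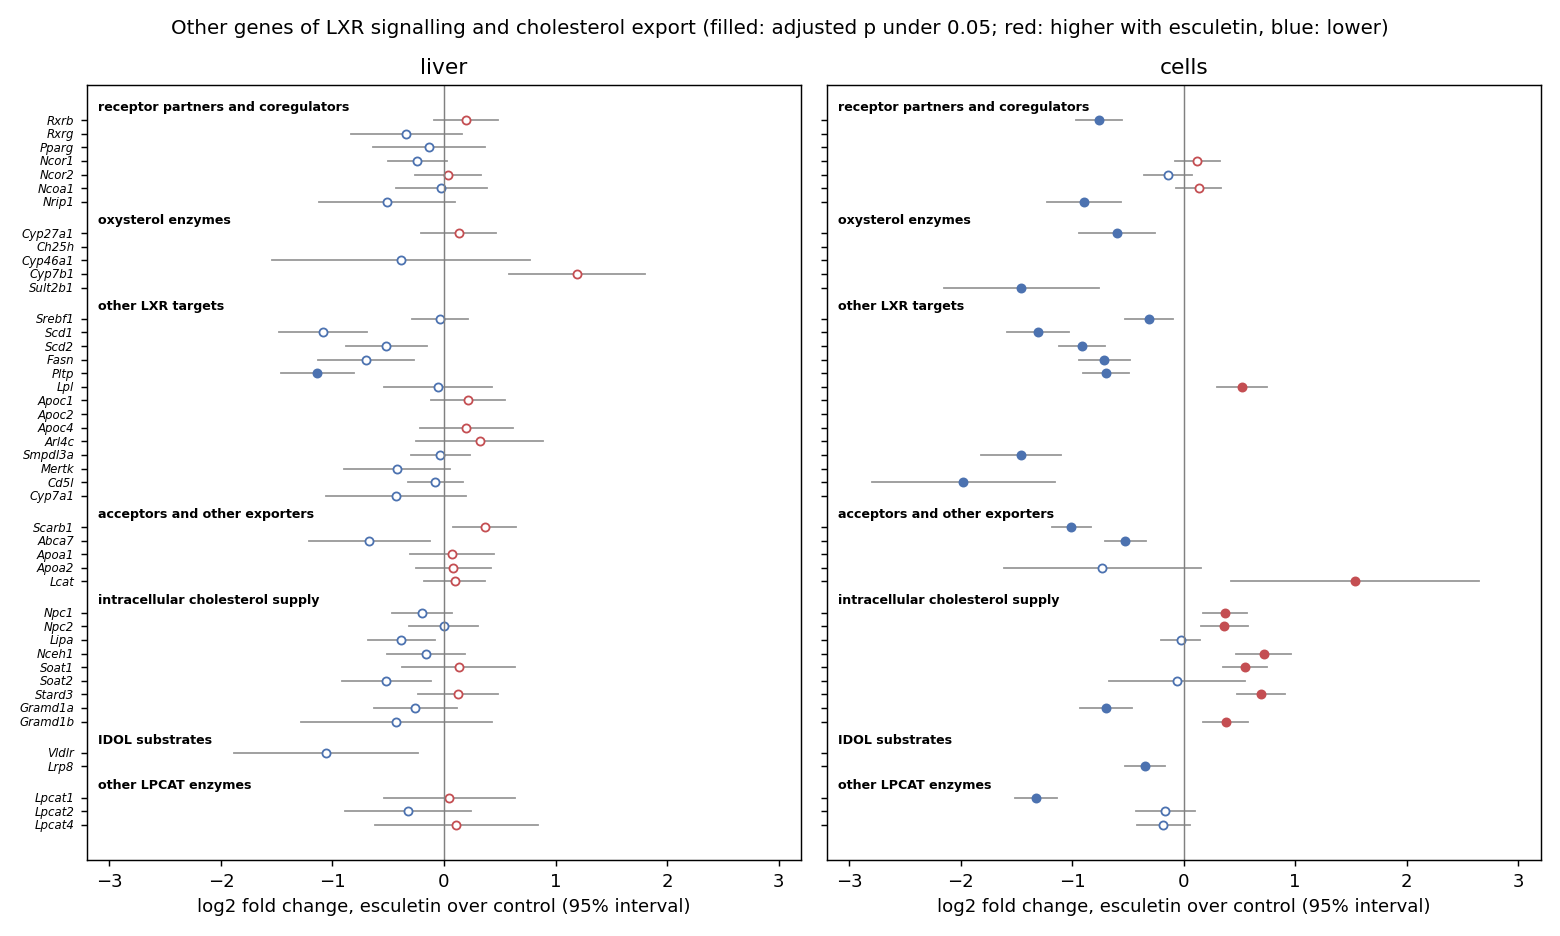
Log2 fold change of esculetin over control from edgeR with its 95% interval for the tested genes among 45 others of LXR signalling and cholesterol export, grouped by role, in the liver (left) and the cells (right). Red points lie above 0 and blue points below, and filled points have an adjusted p under 0.05. In the liver Pltp is the only filled point, and in the cells 8 red and 16 blue points are filled, with 6 of the filled red points in the group of intracellular cholesterol supply.

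The genes whose pattern over 6 libraries was most like that of the gene with the smallest p in each table are given as a description. In the cells, log2 CPM of Abcg1 correlated best with Kif14, Oxnad1, Aldh1l2, Ttf2 and Nde1, with Pearson's r of at least 0.999. The likeness was not rare, since 216 of 8830 genes with a mean of at least 10 CPM had an r over 0.99 with Abcg1, and the points share the split between treatments. In the liver Mylip was most like Gm9826, Mb21d2, Cat, Vgll4 and Bpnt1, with Pearson's r from 0.974 to 0.987, and 0 of 6759 genes passed 0.99.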

How the data were processed

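Per the study and the labels, the authors aligned paired reads with HISAT 2.2.1 to the mouse build GRCm39, counted them per gene with featureCounts and deposited raw counts, 1 table per tissue. The submitters' processing notes also list mm10. The annotation release, the strand setting and the handling of reads with several places were not given in the sources used here. All values were whole, no sample column was left unused (0), and 54749 of 55357 identifiers matched GENCODE vM39, from which symbols, coordinates and exon lengths came. Promoter sequences came from RefSeq windows of GRCm38.p6, and the stretch printed was found unchanged in GRCm39, whose coordinates are given.

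Liver and cells were modelled separately with edgeR 4.0.16 under R 4.3.3 (glmQLFit, glmQLFTest), after filterByExpr by group and scaling by TMM, the trimmed mean of M-values, with no covariate beside treatment. Two-sided p-values were adjusted by Benjamini-Hochberg over all tested genes and called under 0.05. The difference between cells and liver was a contrast in a 4-group model of all 12 libraries. An exact permutation test of a gene in 3 against 3 libraries cannot give a p under 0.1, so p-values rest on spread shared across genes. A gene that did not pass filterByExpr got no fitted fold change in the main test of that tissue. No fold change from another fit is given for a gene with 3 counts or fewer in each library of a group. Counting intervals of ratios are exact at the 95% level.

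The rule named all 10 genes, up to 4 called genes per role and table of the list of 45 by smallest p, those too low to be tested, and the 5 genes most like the leading gene of each table. Some other genes of the pathway are not reported here. Members and lists were chosen with earlier results of these data known. Between replicates, the spread that edgeR fits as its biological coefficient of variation came to 16.5% for livers and 11.8% for cells. In the cells this spread may be technical only. The scripts were tested on simulated data. Alternatives were RLE and upper quartile factors, library size only, no filter on low counts, a filter at 1 CPM in 3 libraries, DESeq2 1.42.0, limma-voom (limma 3.58.1), the study's criterion (unadjusted p under 0.05 and a fold over 1.5), a replicate block and each library left out. Figures were drawn with Python 3.11.15 and matplotlib 3.10.9.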

Additional observations from a re-analysis of the deposited data

Results flagged for a closer look

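For 5 of the 10 genes the effect of esculetin in the cells differed from that in the liver, beside 27.1% of all 15709 genes tested. This was a test of the difference itself, with edgeR in a 4-group model and p-values adjusted over all genes. The difference of log2 fold changes, cells minus liver, was -1.64 for Mylip, -1.38 for Abcg1, -1.11 for Apoe and 0.99 for Lpcat3. The liver groups of Mylip did not overlap either and lay the other way. Mylip was not called in the liver (edgeR adjusted p = 0.559), and 14.5% of all tested liver genes had groups without overlap. For Abca1 the adjusted p of the difference was 0.00852, on 4 counts in control cells and 31 with esculetin. Dose, time and vehicle differ between mice and cells and cannot be told apart from the tissue. No group here had 4 or more libraries, so no library was tested as standing apart from its own group.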

How the results depend on the processing

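No LXR or efflux gene was called in the liver under any of the 15 alternatives. In the cells 7 to 9 of the 10 were tested, and 4 (the study's criterion, of 7 tested) to 6 were called. The 6 were called in those fits that Abca1 entered, with a library left out only through the esculetin group where it is high. Over all tested cell genes the share called was 38.0% by the study's criterion and 31.5% with no filter on low counts. It ran from 47.6% to 60.9% in the other alternatives. The difference between cells and liver was called for 5 genes in each of the 19 alternatives run for it (the filter at 1 CPM and the study's criterion were not) but that without liver control replicate 1, where Nr1h2 joined them (0.44). Over all genes the share called for this difference ran from 14.9% (no filter on low counts) to 30.6% (DESeq2). Of the 45 other genes, 1 was called in the liver in the main test, 0 with library size only, 5 without a filter on low counts (45 then tested), 3 with DESeq2, 2 with limma-voom and 6 by the study's criterion, and 0 to 3 with a library left out; the cause was not tested. Scd1 was among the calls with no filter, DESeq2, limma-voom, the study's criterion, the replicate block, without control replicate 1 and without esculetin replicate 2. Cyp7b1 was among them with no filter, the study's criterion, the replicate block and without esculetin replicate 2. Over all liver genes the count of 11 ran from 0 to 499, and over all cell genes that of 7667 from 5041 to 8061, with 49.7% of calls higher (43.9% with library size only).

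Liver fold changes near 0 changed sign, with none called. Apoe was at -0.0435 with library size only and -0.0019 with the filter at 1 CPM. With a library left out, the log2 fold change ran from -0.0927 (without control replicate 1) to 0.0762 for Apoe, from -0.0087 (without control replicate 1) to 0.152 for Rxra, from -0.463 to 0.160 (without control replicate 1) for Abca1, from -0.0241 (without esculetin replicate 2) to 0.161 for Abcg5 and from -0.114 to 0.135 (without control replicate 2) for Lpcat3. The difference of Nr1h3 ran from -0.0387 (without cells control replicate 1) to 0.689.

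Replicate numbers are shared by the groups, but same-numbered libraries did not all deviate together, nor did each correlate best with its own number (correlations 0.161, -0.01 and 0.123 in the liver and 0.204, -0.04 and 0.127 in the cells), so they were not taken as pairs. With the replicate block 0 LXR or efflux genes were called in the liver and 5 in the cells, and 4 of the 45 others in the liver (24 in the cells). Over all tested genes this fit called 123 in the liver (0.96%) and 60.1% in the cells. Depth limits Abca1, Abcg5, Abcg8 and Nr1h3 in the cells most.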
